A study of Mus musculus with 18 samples.

Results

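The genes described here are 34 genes of DNA replication and S phase. They run from the proteins that mark replication origins to the enzymes that make deoxynucleotides and the E2F factors that regulate such genes. They were taken by symbol from a written list and not by a cut on their values, but the list was chosen with earlier results of these data known. All 34 were found among the 23052 gene symbols of both count tables. All 34 also passed the filter on low counts in both, where 12492 and 12506 genes were tested. The cells were bone marrow-derived macrophages of C57BL6/J wild type mice, grown for 7 days in 20% L929-conditioned medium and 80% DMEM. L929 is a mouse fibroblast line whose medium supplies the macrophage growth factor CSF-1. RNA was sequenced from 18 libraries in 6 groups. Of these, 3 groups of 4 libraries were endotoxin-tolerant macrophages, held with glutamine, without glutamine, or with α-ketoglutarate (AKG) in place of glutamine. The other 3 groups of 2 libraries were untreated macrophages and macrophages given IL-4 or LPS for 6 h. The labels give no dose of LPS, IL-4, glutamine or AKG, no time for the tolerant groups, and no age or sex of the mice. The stated aim was to find transcripts that respond to glutamine metabolism in tolerant macrophages.

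Replication starts where the origin recognition complex sits on DNA. Cdc6 and Cdt1 load the ring of Mcm2 to Mcm7 there, and Cdc45 and the GINS proteins turn that ring into a moving helicase. Polymerases held on by the sliding clamp PCNA then copy the strands. E2F factors turn most of these genes on as a cell enters S phase, and in macrophage cultures their transcripts are widely used as a sign of division. Glutamine gives nitrogen to purine and pyrimidine synthesis and carbon to AKG, an intermediate of the tricarboxylic acid cycle.

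Tolerant libraries held 28.3 to 37.8 M counts each and stimulation libraries 34.2 to 39.8 M. The 34 genes together took 0.0405 to 0.0859% of the counts. Levels below are in CPM, a gene's counts per M counts of its library after scaling by TMM, a normalization to the bulk of the genes, and levels compared between genes are CPM per kilobase of exon (RPKM). Macrophage markers summed to 30410.5 to 47857.5 CPM in the tolerant libraries and 27919 to 39385 CPM in the stimulation libraries. Markers of mast cells, lymphocytes and red cells were each at or below 0.592 CPM when summed, those of dendritic cells at most 6.90 CPM and those of neutrophils and progenitors at most 17.0 CPM. Stromal fibroblast markers were not low everywhere, and their values are given with the results below. The labels do not say whether replicates were separate mice or cultures, so the p-values measure only the spread between these samples.

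Promoters of 6 members are shown because they belong to genes that the results below turn on, and because they differ in whether they carry letters that E2F factors are known to recognise. Windows of 300 bases, 250 before and 50 after the RefSeq start in GRCm38.p6, were matched for 30 of the 34 members, not for Mcm4, Gins1, Gins2 and Pole. Each line gives the 250 bases before the start, read 5′ to 3′ along the gene, with any run of TTTCCCGC, TTTGGCGC, TTTCGCGC or TTTGCCGC on either strand in capitals. The Dtl window is chr1:191575545-191575794 on the minus strand, that of Cdc6 is chr11:98907901-98908150 on the plus strand, that of E2f7 is chr10:110745189-110745438 on the plus strand and that of Mcm5 is chr8:75109259-75109508 on the plus strand. The Mcm10 window is chr2:5012792-5013041 on the minus strand and that of Rrm2 is chr12:24708004-24708253 on the plus strand.
Dtl: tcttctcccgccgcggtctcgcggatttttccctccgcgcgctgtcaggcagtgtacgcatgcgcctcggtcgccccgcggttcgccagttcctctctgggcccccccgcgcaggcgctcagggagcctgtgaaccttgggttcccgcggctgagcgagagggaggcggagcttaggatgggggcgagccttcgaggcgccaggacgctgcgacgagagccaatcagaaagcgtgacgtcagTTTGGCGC
Cdc6: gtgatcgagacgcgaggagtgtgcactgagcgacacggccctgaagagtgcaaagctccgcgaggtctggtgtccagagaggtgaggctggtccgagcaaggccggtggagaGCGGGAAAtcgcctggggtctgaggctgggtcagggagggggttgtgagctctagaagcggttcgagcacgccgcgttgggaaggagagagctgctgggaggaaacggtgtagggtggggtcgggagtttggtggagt
E2f7: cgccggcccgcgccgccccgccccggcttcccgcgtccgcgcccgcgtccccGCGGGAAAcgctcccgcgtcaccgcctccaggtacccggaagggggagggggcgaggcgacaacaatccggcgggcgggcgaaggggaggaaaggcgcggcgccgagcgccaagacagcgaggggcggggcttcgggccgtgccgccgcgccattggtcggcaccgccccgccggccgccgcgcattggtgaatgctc
Mcm5: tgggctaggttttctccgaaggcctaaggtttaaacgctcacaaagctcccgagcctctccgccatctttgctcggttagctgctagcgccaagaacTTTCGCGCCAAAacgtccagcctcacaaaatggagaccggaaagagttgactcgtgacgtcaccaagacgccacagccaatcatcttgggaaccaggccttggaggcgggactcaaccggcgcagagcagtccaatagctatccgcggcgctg
Mcm10: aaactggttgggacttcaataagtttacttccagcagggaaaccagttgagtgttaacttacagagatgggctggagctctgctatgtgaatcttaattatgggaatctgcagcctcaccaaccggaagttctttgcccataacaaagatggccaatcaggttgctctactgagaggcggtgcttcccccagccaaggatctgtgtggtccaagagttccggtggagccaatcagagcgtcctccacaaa
Rrm2: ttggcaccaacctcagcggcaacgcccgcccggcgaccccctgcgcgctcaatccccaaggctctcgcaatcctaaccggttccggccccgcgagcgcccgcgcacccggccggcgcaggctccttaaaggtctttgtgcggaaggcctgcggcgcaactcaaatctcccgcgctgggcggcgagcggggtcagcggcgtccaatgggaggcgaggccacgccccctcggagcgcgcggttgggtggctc

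Counting the base before the start as -1, the letters began at -8 in Dtl, at -138 in Cdc6 and at -198 in E2f7. In Mcm5 there were matches at -153 and -149, on opposite strands and overlapping. None of the 4 strings was in the Mcm10 or Rrm2 window. Some genes have several starts, and the 30 matched members had 35 windows. At least one of the strings was in 13 of these 35 (37.1%), in 13 different members, against 744 of all 32851 promoter windows (2.26%). CCAAT, the letters of the NF-Y box, was in 22 of the 35 (62.9%) and in 37.4% of all windows. TTTGAA or TTCGAA, the cell cycle genes homology region of many mitotic promoters, was in 7 of the 35 (20.0%) and in 19.2% of all. A match describes the letters and is no measurement of binding.

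Pcna, the sliding clamp, had the highest level per kilobase of the 34 genes in all 6 groups. It stood at 106 RPKM in control macrophages, 96.7 RPKM with LPS, 64 RPKM in tolerant cells with glutamine and 70.6 RPKM without it. Mcm6 came next in 5 groups, and in the tolerant group without glutamine E2f1 and Mcm6 followed at 10.5 and 10.4 RPKM. E2f7, a repressor of the E2F family, and Dtl, the substrate receptor of the ubiquitin ligase that removes Cdt1 during S phase, had the lowest levels in every group. With glutamine they stood at 0.218 and 0.203 RPKM. The ranks depend on the length used, that of all annotated exons of a gene together, 13.7 kb for Dtl and 6.96 kb for Mcm2. In CPM with glutamine, Dtl at 2.78 stood above Fen1 at 0.712 and Orc1 at 1.82. The Fen1 and Orc1 levels are less certain, as both share exon bases with genes on the opposite strand. The 6 subunits of the Mcm ring are built into it in equal number, yet in control cells Mcm6 stood at 21.2 RPKM, Mcm3 at 9.56, Mcm4 at 8.21, Mcm7 at 4.61, Mcm5 at 4.41 and Mcm2 at 2.1 RPKM. The tolerant and stimulation tables were normalized separately, so these levels are ordered within a group and not compared between the tables.

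Without glutamine, 8 of the 34 genes fell in tolerant macrophages, 1 rose and 25 did not pass the test. A gene was called at an adjusted p under 0.05 in edgeR's quasi-likelihood test (Benjamini-Hochberg over all genes tested), and values after ± are standard errors. The share of all tested genes called lower was 2.40%, and the share called higher was 2.30%. The 8 lower genes were Mcm4, Mcm10, Cdc6, Rrm1, Rrm2, Tk1, E2f7 and Dtl, and the higher one was Cdt1. The median log2 change of the 34 was -0.42, beside -0.01 over all genes tested, and 29 of the 34 were below 0. An unadjusted p under 0.05 was reached by 20 of the 34, and by 2234 of all 12492 genes. In bulk RNA, fewer cells of a kind and less RNA per cell cannot be told apart. With the replicate number as a block in the fit, 16 were lower and 1 was higher, where 13.0% and 8.68% of all genes were called.

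Of the origin proteins, Cdc6 and Mcm10 fell most. Cdc6, the loader of the Mcm ring, was at 2.96, 2.4, 4.34 and 4.13 CPM in replicates 1 to 4 with glutamine and 1.81, 1.56, 1.63 and 1.67 CPM without it. No library without glutamine reached the lowest with glutamine. The log2 change was -1.05 ± 0.21 (edgeR adjusted p = 0.016), or 2.07-fold lower. Mcm10, which helps start the helicase, was at 2.99, 2.51, 4.45 and 4.13 CPM in replicates 1 to 4 with glutamine and 1.24, 1.68, 1.4 and 1.43 CPM without it, again with no overlap. Its log2 change was -1.29 ± 0.23 (adjusted p = 0.011), or 2.44-fold lower. Mcm4 was the one ring subunit called. It was at 32.4, 28.8, 36.3 and 37.6 CPM in replicates 1 to 4 with glutamine and 24.1, 24.1, 26.9 and 27.6 CPM without it, a smaller and narrow difference of -0.40 ± 0.09 log2 units (1.32-fold lower, edgeR adjusted p = 0.033). With 1 library left out at a time, the call of Mcm10 was kept in 12 of 12 fits, that of Cdc6 in 10 (not without replicate 4 with glutamine, adjusted p = 0.052, or replicate 2 without it, 0.057) and that of Mcm4 in 5, with adjusted p up to 0.10.

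Cdt1, the partner of Cdc6 in loading, went the other way. It was at 19.5, 19.4, 23.2 and 22.3 CPM in replicates 1 to 4 with glutamine and 25.3, 25, 34.2 and 32 CPM without it. The highest library with glutamine lay below the lowest without. The log2 change was 0.47 ± 0.12 (edgeR adjusted p = 0.046; 0.00088 with the replicate block), or 1.38-fold higher. The call without the block was kept in 2 of 12 fits that each left out 1 library, while the log2 change stayed between 0.38 and 0.54.

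The other ring subunits were spread between small and moderate differences that did not pass. Mcm5 was at 10.3, 10.3, 16.2 and 16.8 CPM in replicates 1 to 4 with glutamine and 7.19, 7.49, 10.6 and 6.7 CPM without it; replicates 3 and 4 with glutamine were the highest and replicate 3 without glutamine overlapped the lowest with it. Its log2 change of -0.75 ± 0.20 missed the threshold (edgeR adjusted p = 0.055) and passed with the block (0.011). Mcm2 was at 14.9, 14.9, 19.7 and 18.4 CPM in replicates 1 to 4 with glutamine and 13.8, 16.6, 17.1 and 12.9 CPM without it, with groups that overlapped and a log2 change of -0.17 ± 0.13. Mcm3, Mcm6 and Mcm7 had log2 changes of -0.05 ± 0.09, -0.19 ± 0.23 and -0.22 ± 0.17, none of them called in either fit. Orc1, the largest subunit of the origin recognition complex, was low, at 1.43, 1.2, 2.27 and 2.4 CPM in replicates 1 to 4 with glutamine and 1.54, 0.779, 0.653 and 1.37 CPM without it. Its groups overlapped and its log2 change was -0.75 ± 0.33 (edgeR adjusted p = 0.26). Orc6, the smallest subunit, had a log2 change of -0.21 ± 0.12.

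Of the 4 genes of deoxynucleotide supply 3 were called lower, and the other one passed with the block. Rrm2, the small subunit of ribonucleotide reductase whose level limits the enzyme in S phase, was at 3.92, 3.22, 16.3 and 15.9 CPM in replicates 1 to 4 with glutamine and 1.41, 0.779, 1.34 and 1.37 CPM without it. Replicates 3 and 4 with glutamine stood far above replicates 1 and 2 of the same group, and all 4 stood above every library without glutamine. The log2 change was -3.01 ± 0.55 (edgeR adjusted p = 0.014), or 8.06-fold lower. Rrm1, the large subunit, was at 44.6, 43.2, 61 and 59.1 CPM in replicates 1 to 4 with glutamine and 33.5, 33.9, 37.4 and 34.6 CPM without it. The groups did not overlap and the log2 change was -0.58 ± 0.11 (adjusted p = 0.015), or 1.49-fold lower. Without replicate 2 of the group lacking glutamine both calls were lost (adjusted p = 0.052 for Rrm2 and 0.054 for Rrm1), with log2 changes of -2.84 and -0.56.

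Tk1, the thymidine kinase of the salvage route, was at 7.19, 6.73, 8.32 and 8.33 CPM in replicates 1 to 4 with glutamine and 4.88, 4.94, 4.97 and 5.3 CPM without it. The values without glutamine lay within a narrow range under all values with it, at a log2 change of -0.61 ± 0.13 (edgeR adjusted p = 0.021; 1.52-fold lower). The call was kept in 8 of 12 fits with 1 library left out, with adjusted p up to 0.069. Tyms, thymidylate synthase, was at 3.3, 2.97, 4.84 and 5.39 CPM in replicates 1 to 4 with glutamine and 2.68, 2.63, 2.94 and 2.97 CPM without it. Its ranges met at their ends, and its log2 change of -0.56 ± 0.19 was called with the block alone (edgeR adjusted p = 0.14, and 0.032 with it).

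**Figure D1:**
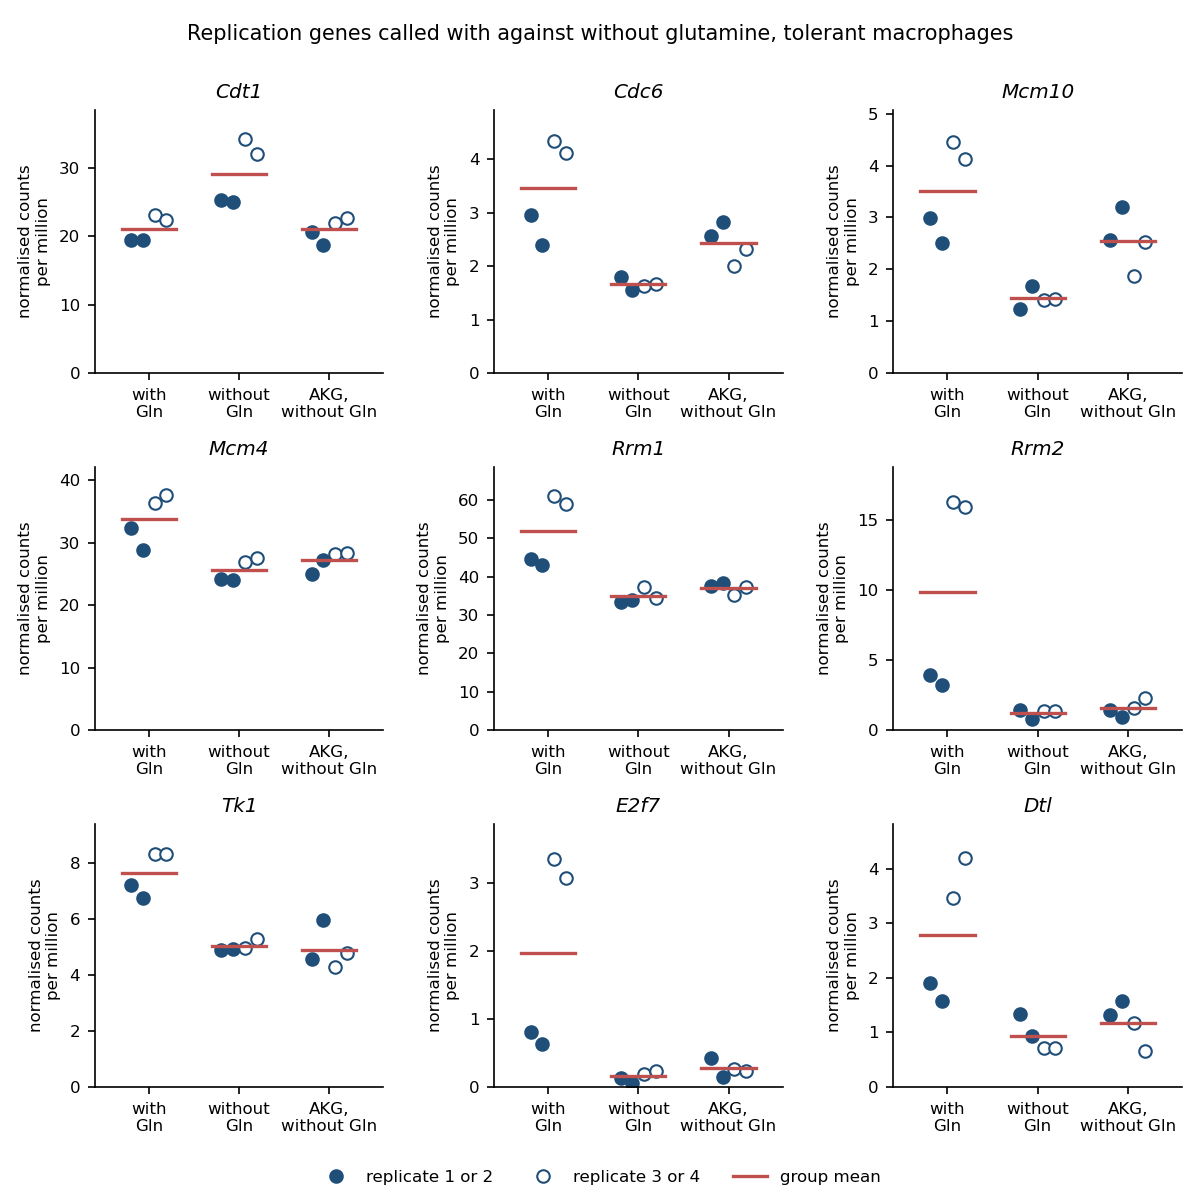
CPM of 9 genes in each of the 12 tolerant libraries, with glutamine, without it, and with AKG in its place; filled points are replicates 1 and 2, open points replicates 3 and 4, and the red line is the group mean. Rrm2, E2f7 and Dtl show open points with glutamine far above the filled ones, while Cdt1 is the panel in which the group without glutamine is highest.

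E2f7 and Dtl were the other genes that fell. E2f7 was at 0.81, 0.627, 3.34 and 3.07 CPM in replicates 1 to 4 with glutamine and 0.134, 0.0599, 0.196 and 0.239 CPM without it, the lowest of these being 2 counts. Every library with glutamine lay above every library without it, and replicates 3 and 4 with glutamine were again the highest. The log2 change was -3.63 ± 0.65 (edgeR adjusted p = 0.013), or 12.3-fold lower, the largest of the 34 in size. Dtl was at 1.9, 1.58, 3.45 and 4.2 CPM in replicates 1 to 4 with glutamine and 1.34, 0.928, 0.719 and 0.717 CPM without it. The groups did not overlap, and the log2 change was -1.59 ± 0.38 (adjusted p = 0.038), or 3-fold lower. With 1 library left out at a time the call of E2f7 was kept in 12 of 12 fits and that of Dtl in 5, where the adjusted p reached 0.11 without replicate 4 with glutamine.

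None of the other E2F genes was called without the block. E2f8, the closest relative of E2f7 and also a repressor, was at 10.4, 11.2, 8.4 and 9.31 CPM in replicates 1 to 4 with glutamine and 7.8, 7.67, 4.97 and 4.58 CPM without it. All values without glutamine were under all values with it, at a log2 change of -0.65 ± 0.20 that was called with the block alone (edgeR adjusted p = 0.095, and 0.0022 with it). The activator E2f1 was at 31.9, 34, 33.7 and 31.2 CPM in replicates 1 to 4 with glutamine and 35, 36.2, 35 and 26.5 CPM without it, a log2 change of 0.02 ± 0.10. E2f2, also classed as an activator, had a log2 change of 0.04 ± 0.33, with groups that overlapped throughout.

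At the fork itself no gene was called without the block. Cdc45, the helicase cofactor, was at 2.86, 2.26, 4.78 and 3.84 CPM in replicates 1 to 4 with glutamine and 1.91, 1.92, 2.22 and 2.25 CPM without it, with no overlap and a log2 change of -0.73 ± 0.24 (edgeR adjusted p = 0.13; 0.026 with the block). Gins1 and Gins2 of the same helicase had log2 changes of -0.32 ± 0.28 and -0.50 ± 0.18, and the block fit called Gins2 (0.017). Pole, the leading-strand polymerase, was at 4.45, 3.6, 8.18 and 8.61 CPM in replicates 1 to 4 with glutamine and 2.78, 2.63, 3.4 and 3.48 CPM without it. The groups were apart, and its log2 change of -1.02 ± 0.27 just missed (edgeR adjusted p = 0.059; 0.0042 with the block). Prim1, the catalytic primase subunit, was at 5.95, 5.48, 6.52 and 7.3 CPM in replicates 1 to 4 with glutamine and 5.35, 5.09, 4.7 and 4.44 CPM without it, a log2 change of -0.37 ± 0.13 with no overlap and no call in either fit. Pola1, the polymerase that extends primers, was scattered within groups, at 20.6, 19.2, 10 and 18.4 CPM in replicates 1 to 4 with glutamine and 17, 15.1, 4.44 and 12.5 CPM without it.

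The clamp and its loader showed no call. Pcna was at 127, 119, 192 and 176 CPM in replicates 1 to 4 with glutamine and 151, 139, 197 and 192 CPM without it. Replicates 3 and 4 were higher than 1 and 2 in both groups, and the log2 change was 0.14 ± 0.25 (edgeR adjusted p = 0.85). Rfc3, a loader subunit, was at 12.5, 11.4, 13.9 and 11.8 CPM in replicates 1 to 4 with glutamine and 10.7, 11.4, 12.3 and 12.1 CPM without it, a log2 change of -0.09 ± 0.08. Rfc4 and Rfc5 of the same loader had log2 changes of -0.05 ± 0.14 and -0.18 ± 0.11, neither called. Fen1, which trims Okazaki flaps, was at 0.592, 0.654, 0.801 and 0.799 CPM in replicates 1 to 4 with glutamine and 0.636, 0.479, 0.621 and 0.615 CPM without it, with a log2 change of -0.28 ± 0.21. Lig1, which seals the nicks, was at 14.1, 15.2, 22.6 and 24 CPM in replicates 1 to 4 with glutamine and 14.2, 12.5, 15.8 and 13.2 CPM without it. Its ranges overlapped at their ends, and its log2 change of -0.45 ± 0.16 was called with the block alone (edgeR adjusted p = 0.17, and 0.044 with it).

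Chaf1a and Chaf1b, the large and middle subunits of the histone chaperone CAF-1, pointed in opposite directions. Chaf1a was at 5.98, 7.44, 10.4 and 10.3 CPM in replicates 1 to 4 with glutamine and 4.78, 5.18, 6.3 and 4.71 CPM without it, a log2 change of -0.70 ± 0.19 (edgeR adjusted p = 0.056; 0.0078 with the block). Chaf1b was at 6.45, 6.54, 7.13 and 6.03 CPM in replicates 1 to 4 with glutamine and 8.97, 9.97, 8.4 and 7.04 CPM without it. Its libraries without glutamine were mostly higher and met the range with it, at a log2 change of 0.39 ± 0.14 (edgeR adjusted p = 0.17; 0.057 with the block). Neither was called without the block.

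**Figure D2:**
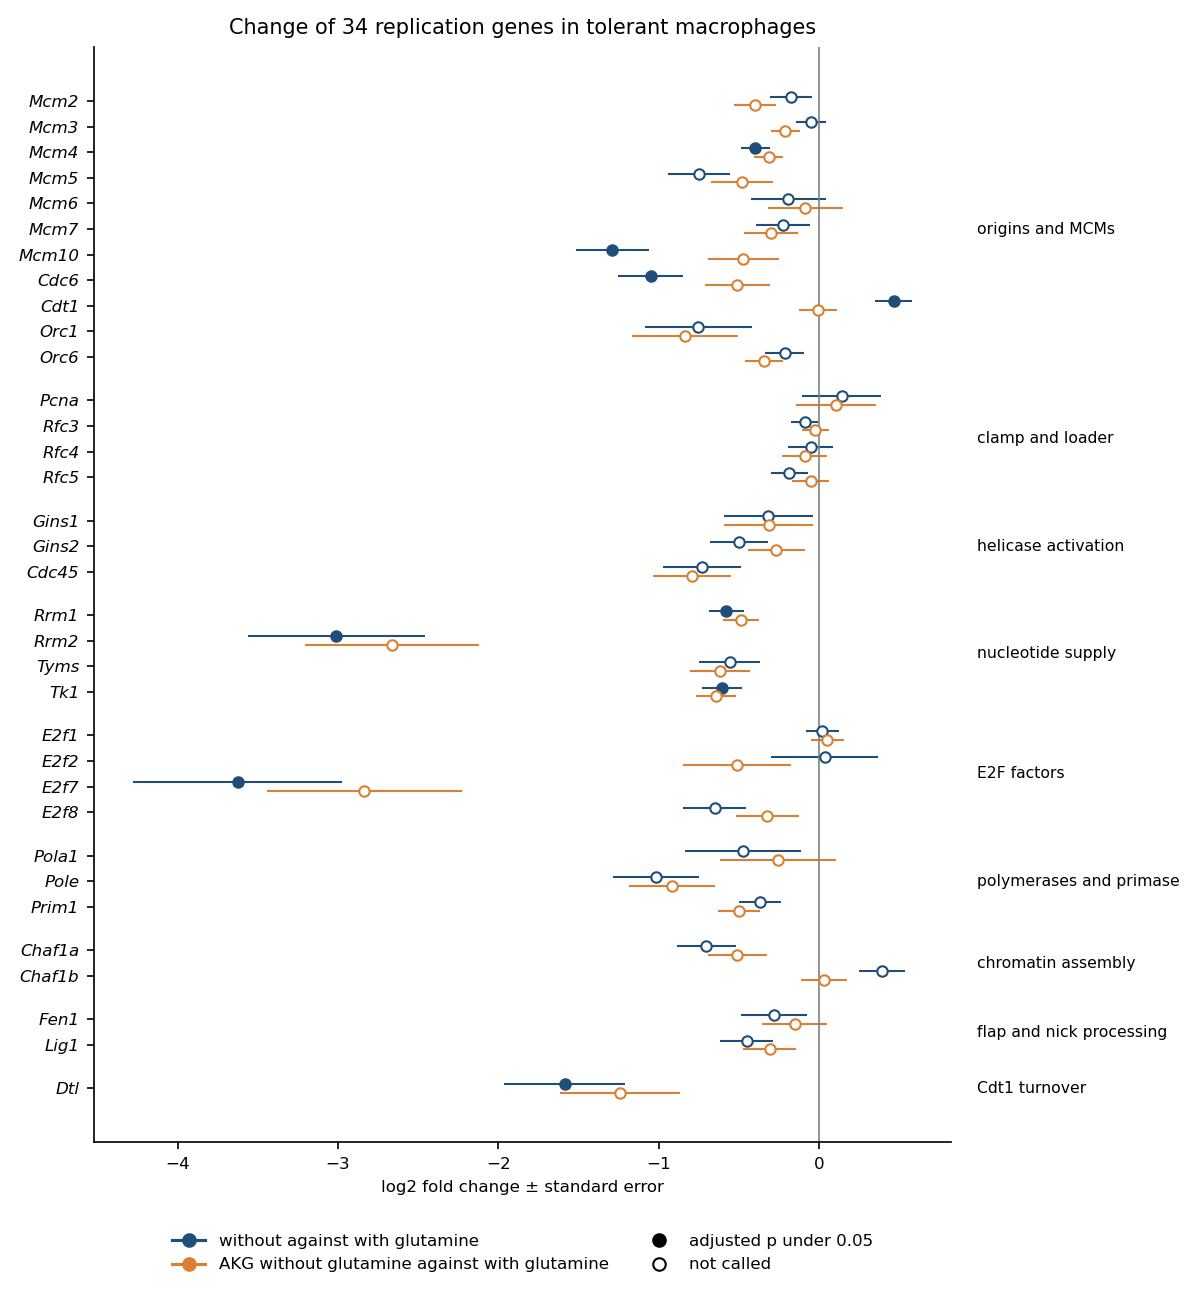
Log2 change and standard error of the 34 genes, ordered by role, for the group without glutamine against the group with it (blue) and for the AKG group against the group with glutamine (orange); filled points passed the test. The 9 filled points are all blue, with E2f7 at -3.63 and Rrm2 at -3.01 farthest left and Cdt1 at 0.47 the one to the right of 0.

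Which libraries carried the fall was uneven. For 23 of the 34 genes, the 2 highest of the 12 tolerant libraries were replicates 3 and 4 with glutamine. In that group 30 genes had a higher mean in replicates 3 and 4 than in 1 and 2, with a median ratio of 1.34. Without glutamine it was 22 genes (median ratio 1.08) and with AKG 16 genes (median ratio 0.969). None of these counts was made over all genes. A fit with replicates 3 and 4 against 1 and 2 as a factor gave a median log2 difference of 0.172 for the members. Over all genes tested it was 0.0032. The labels do not say what sets replicates 1 and 2 apart from 3 and 4, and the difference between them was seen in the data and is given without a test. Each pair was also fitted alone. The median log2 change of the members without glutamine was -0.22 in replicates 1 and 2 and -0.56 in replicates 3 and 4. Over all genes tested the medians were 0.003 and -0.006. The change was below 0 in both for 27 members, above 0 in both for 3, and of opposite sign for E2f1, E2f2, Mcm2 and Mcm3.

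Whether the change itself differed between the pairs of replicates was tested as an interaction in edgeR. Of all genes 2.45% were called, and of the 34 members 1, Rrm2. Its log2 change was -1.72 in replicates 1 and 2 and -3.55 in replicates 3 and 4, a difference of -1.85 ± 0.39 (edgeR adjusted p = 0.039). Rrm2 passed the test in each pair fitted alone. E2f7 had -2.86 and -3.84, Mcm10 -0.90 and -1.57, Cdc6 -0.67 and -1.33, and Dtl -0.63 and -2.39 in the same order, none of them called as different. Dtl was the one of these 4 that missed the test in replicates 1 and 2 alone (edgeR adjusted p = 0.080). Cdt1 rose in both, by 0.37 and 0.57.

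**Figure D3:**
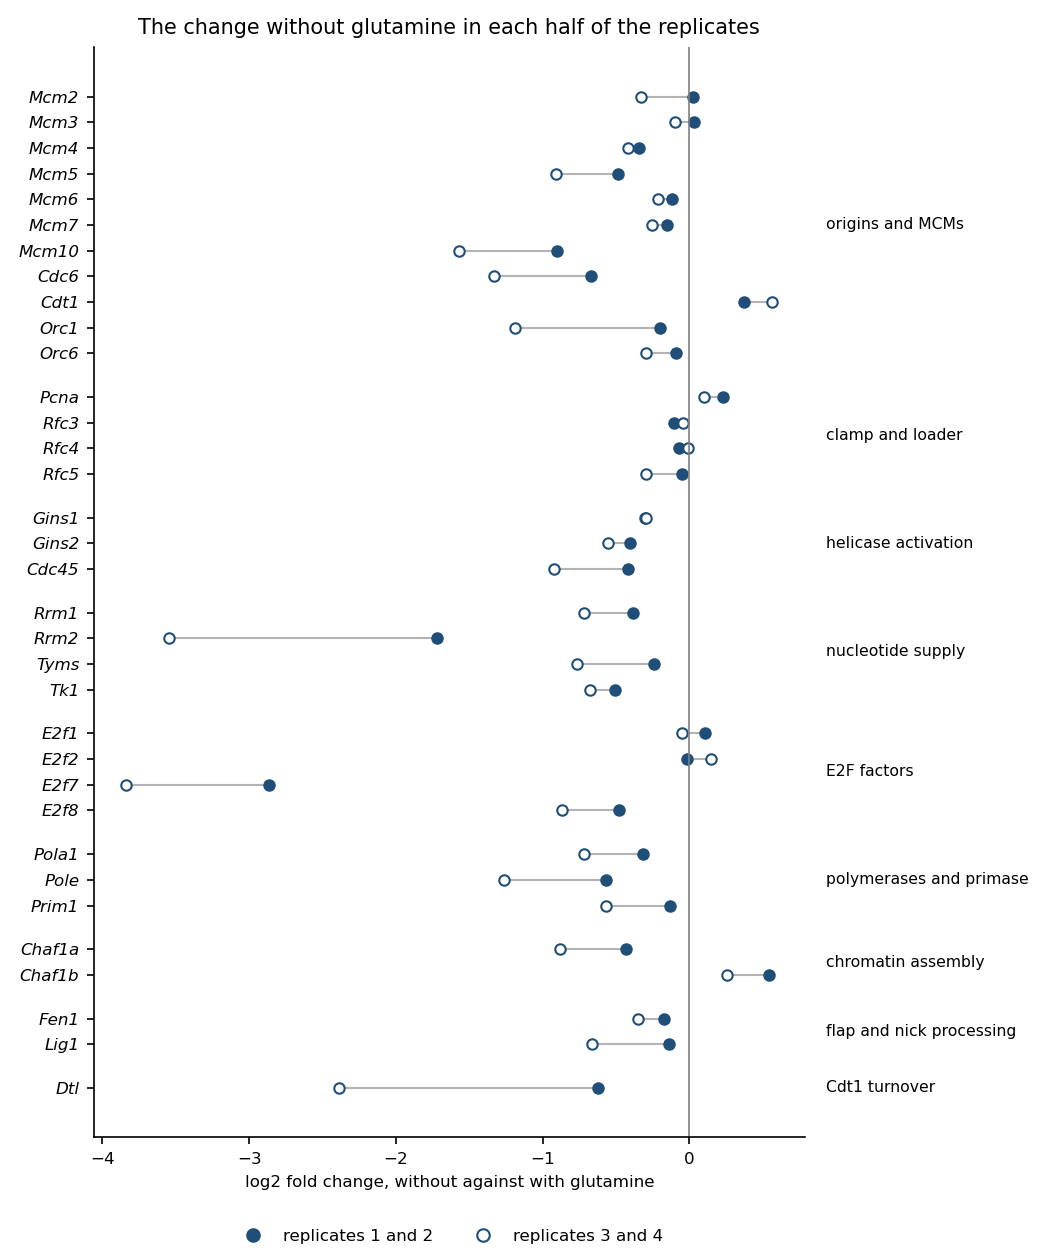
Log2 change without glutamine against with glutamine for the 34 genes, estimated in replicates 1 and 2 (filled) and in replicates 3 and 4 (open). The open point lies to the left of the filled one for 29 genes, most of all for Rrm2 (-1.72 and -3.55) and Dtl.

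Stromal fibroblast markers were also highest in replicates 3 and 4 with glutamine. Their summed level was 299 and 337 CPM in replicates 1 and 2 with glutamine, and 1599 and 1582 CPM in replicates 3 and 4. Without glutamine it was 39.3, 37.0, 152 and 143 CPM, and with AKG 107, 76.0, 268 and 274 CPM. The members did not rise alike there. Their median ratio of replicates 3 and 4 to 1 and 2 was 1.08 without glutamine and 0.969 with AKG. Of the 8 markers on the list 6 were tested and 4 fell without glutamine: Col1a1 (-4.35), Col1a2 (-2.95), Col3a1 (-3.43) and Postn (-3.70), as log2 changes. None rose. Of 11 macrophage markers none was called, and their median log2 change was 0.03. The part of these cells in the fall of the replication genes was not tested. The 6 tested stromal markers had a median log2 change of -3.02 within replicates 1 and 2 and -2.97 within replicates 3 and 4. Within replicates 1 and 2 alone 11 of the members were called lower and 2 higher, beside 15.6% and 13.0% of all genes. In replicates 3 and 4 alone 15 were lower and 1 higher, beside 8.79% and 4.41%.

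Related lists gave the following counts without glutamine, where 2.40% of all genes were lower and 2.30% higher. Of 16 mitotic genes 12 fell and 4 were not called, with a median log2 change of -1.60. Among them were Plk1 (-3.07) and Cenpf (-4.15), a kinase and a kinetochore protein of mitosis, Top2a (-1.96), a topoisomerase, and Birc5 (-2.50), survivin. Of 39 other replication genes 5 fell and none rose, with a median of -0.13. They included Clspn (-1.77), a checkpoint mediator at the fork, Uhrf1 (-1.74), which couples DNA methylation to replication, Prim2 (-0.51) and Topbp1 (-0.37). Of 29 regulators of S phase entry 3 fell: Ccna2 (-2.88) and Ccne1 (-0.80), the cyclins of S phase and its onset, and Rbl2 (-0.27), a pocket protein. None of 19 other nucleotide genes was called in either direction (edgeR; 3 had an unadjusted p under 0.05), and 5 fell with the block. The lists were chosen with earlier results of these data known.

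AKG given in place of glutamine was set against both other tolerant groups, which share its 4 libraries. Against no glutamine, none of the 34 genes was called in edgeR, where 0.640% of all genes were higher and 0.849% lower. An unadjusted p under 0.05 was reached by 4 of the 34, and by 1619 of all 12492 genes, a similar share. DESeq2 called 1 higher and 1 lower, beside 2.61% and 2.96% of all genes. The median log2 change was 0.07. With the replicate block 1 was higher and 2 were lower, where 8.32% and 7.03% of all genes were called. No member's change differed between the pairs of replicates, which was so for 0.0560% of all genes.

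The 4 genes with an unadjusted p under 0.05 were Mcm10, Cdc6, Cdt1 and Chaf1b. Mcm10 with AKG was at 2.56, 3.2, 1.87 and 2.53 CPM, all above the libraries without glutamine, at a log2 change of 0.82 ± 0.23 (edgeR adjusted p = 0.12; 0.0498 with the block). Cdc6 was at 2.56, 2.84, 2 and 2.32 CPM, also with no overlap, and its log2 change was 0.54 ± 0.20 (edgeR adjusted p = 0.27; 0.13 with the block). Cdt1 was at 20.7, 18.8, 21.9 and 22.7 CPM, all below the libraries without glutamine, at -0.47 ± 0.12 (edgeR adjusted p = 0.078; 0.0019 with the block). Chaf1b was at 8.48, 6.25, 5.66 and 6.36 CPM, at -0.36 ± 0.14. E2f2, at 7.93, 7.82, 5.03 and 4.98 CPM with AKG, was the other member called lower with the block, at a log2 change of -0.55 ± 0.34 (edgeR adjusted p = 0.57; 0.026 with the block).

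Against glutamine, no gene of all those tested was called in edgeR, 0% in either direction, and so none of the 34 either. An unadjusted p under 0.05 was reached by 17 members, all of them below 0, and by 916 of all 12492 genes. DESeq2 called 5 lower and none higher, beside 1.26% and 0.600% of all genes. The median log2 change was -0.33. With the replicate block 8 were lower and none higher, where 5.38% of all genes were lower and 1.63% higher. They were Rrm1, Rrm2, Tk1, Tyms, Mcm4, Cdc45, Pole and E2f7, all 4 deoxynucleotide genes among them. Rrm2 with AKG was at 1.42, 0.966, 1.54 and 2.27 CPM, every one below the lowest with glutamine, at a log2 change of -2.66 ± 0.54 (edgeR adjusted p = 0.16; 0.0052 with the block). E2f7 was at 0.432, 0.151, 0.271 and 0.237 CPM, likewise apart, at -2.84 ± 0.61 (edgeR adjusted p = 0.17; 0.0038 with the block). Tk1 was at 4.57, 5.98, 4.28 and 4.77 CPM and Rrm1 at 37.6, 38.3, 35.1 and 37.4 CPM, at -0.64 ± 0.13 and -0.49 ± 0.11. The log2 change of Cdt1 was -0.01 ± 0.12.

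The mean with AKG lay between the means of the other tolerant groups for 21 genes, below both for 12 and above both for E2f1. The commonest order of means, found for 19 genes, was glutamine, then AKG, then no glutamine, and 10 genes had glutamine, then no glutamine, then AKG. Of the 68 pairs of neighbours in these orders 56 overlapped, 12 did not, and 2 were called, 1 each in Tk1 and Cdt1 (10 with the block). Orders and pairs were not counted over all genes, so these counts have no share to be read against. Rrm2 had 1.55 ± 0.54 CPM with AKG and 1.22 ± 0.297 CPM without glutamine, which overlapped, and 9.85 ± 7.26 CPM with glutamine, which stood apart from both (SD, n = 4). An interaction with the pairs of replicates was called against glutamine for 1.61% of all genes and for 2 members. Rrm1 had a log2 change of -0.21 in replicates 1 and 2 and -0.70 in 3 and 4, a difference of -0.52 ± 0.09 (edgeR adjusted p = 0.029). Dtl had -0.26 and -2.04, a difference of -1.81 ± 0.37 (edgeR adjusted p = 0.045). Of the related lists, the one call against no glutamine was Samhd1 (0.70), which breaks down deoxynucleotides. Against glutamine no mitotic gene was called, at a median log2 change of -1.50 over 16 genes, and 13 were lower with the block.

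In the stimulation set, IL-4 for 6 h lowered 7 of the 34 genes and raised 1 against untreated macrophages, where 10.5% of all genes were lower and 9.66% higher. The 7 were E2f2, Mcm10, Cdc45, E2f8, Pcna, Lig1 and Chaf1b, and the higher one was Rfc5. The median log2 change was -0.30, beside -0.04 over all genes. An unadjusted p under 0.05 was reached by 18 members, and by 4088 of all 12506 genes. With 2 libraries a group, none of these calls was kept when either IL-4 library was left out.

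LPS for 6 h lowered 21 of the 34 and raised none, where 29.3% of all genes were lower and 22.8% higher. The median log2 change was -0.74, beside -0.10 over all genes. LPS libraries had TMM factors of 0.791 and 0.822 against 1.09 to 1.13 in the others, so the scaling matters here. By library totals alone the median of all genes was -0.55, with 1609 genes called higher and 6407 lower in place of 2856 and 3663. The median of the members was then -1.19, and 31 were lower and none higher, beside 51.2% and 12.9% of all genes. Both comparisons share the untreated libraries, and their values are given side by side below.

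**Figure D4:**
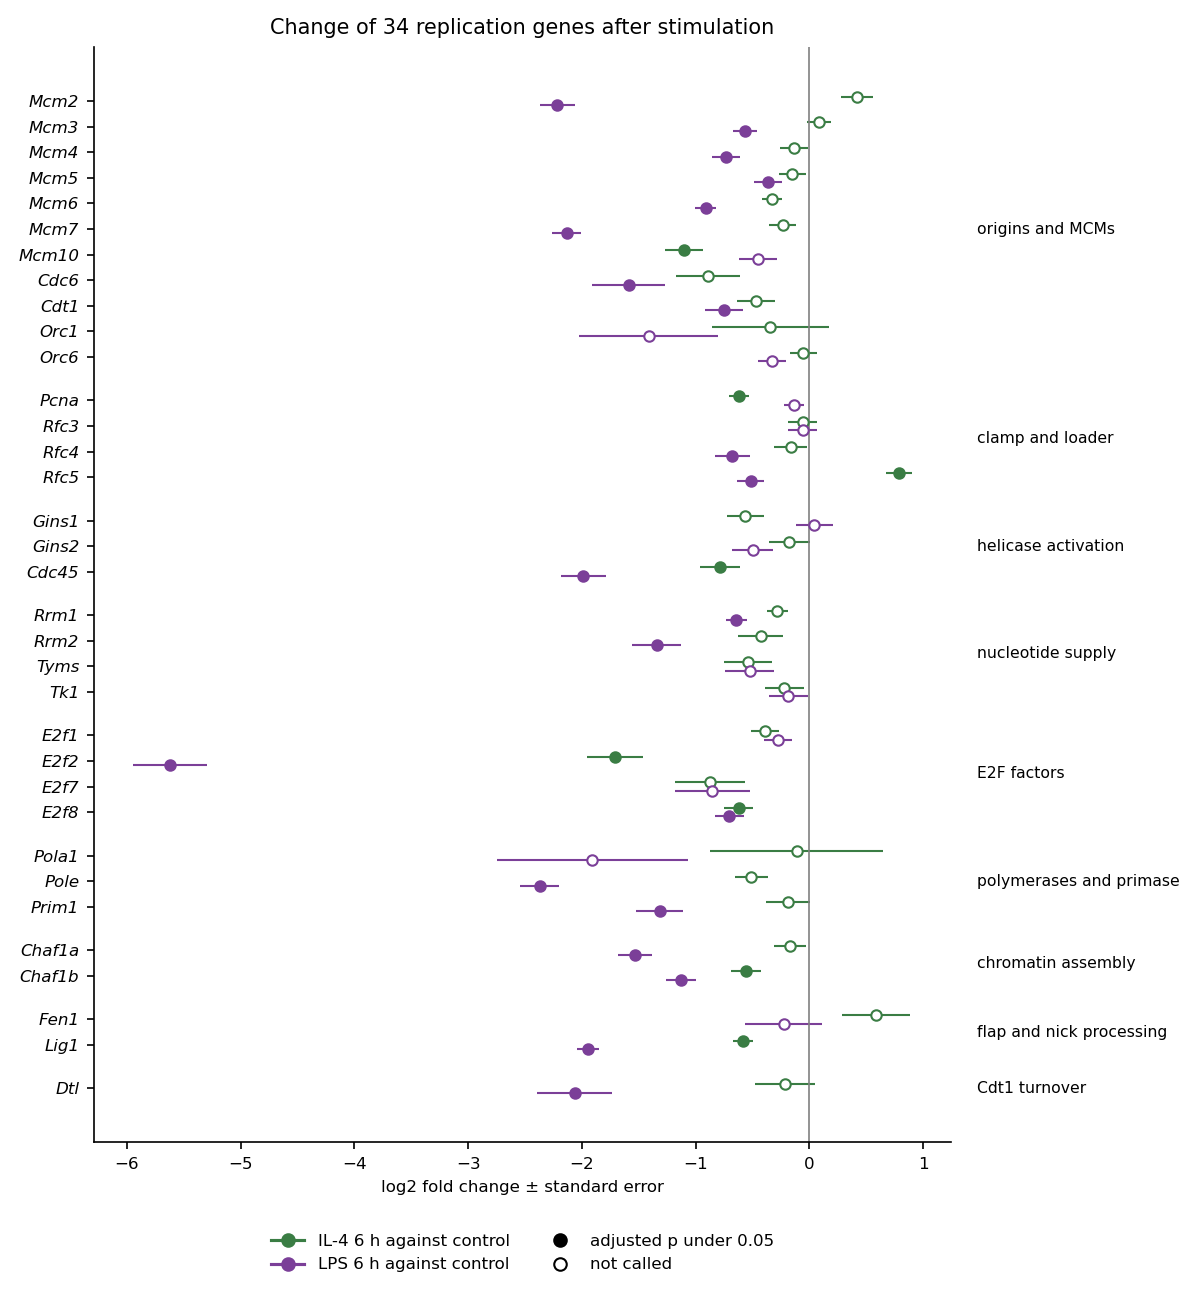
Log2 change and standard error of the 34 genes, ordered by role, for IL-4 (green) and LPS (purple) against untreated macrophages; filled points passed the test. The 21 filled purple points are all left of 0, with E2f2 at -5.62 farthest, and Rfc5 at 0.79 is the one filled green point to the right.

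E2f2 changed most with either stimulus. It is classed as an activator, and its action in these cells was not tested. Its level was 33.5 and 27 CPM in control, 8.77 and 9.75 CPM with IL-4 and 0.383 and 0.838 CPM with LPS. The 3 groups were far apart, and the log2 change was -1.71 ± 0.25 with IL-4 (edgeR adjusted p = 0.0071; 3.26-fold lower) and -5.62 ± 0.32 with LPS (adjusted p = 9.6e-05; 49.3-fold lower). E2f8 was at 7.03 and 7.34 CPM in control, 4.46 and 4.86 CPM with IL-4 and 4.42 and 4.4 CPM with LPS, lower with both, at -0.62 ± 0.13 and -0.70 ± 0.13 (edgeR adjusted p = 0.02 and 0.0052). E2f1 was at 33.9 and 28.4 CPM in control, 23.1 and 24.5 CPM with IL-4 and 27.1 and 24.4 CPM with LPS and E2f7 at 0.624 and 0.703 CPM in control, 0.363 and 0.359 CPM with IL-4 and 0.452 and 0.279 CPM with LPS. Neither of these was called with IL-4 or with LPS. Dtl was at 1.25 and 1.83 CPM in control, 1.45 and 1.21 CPM with IL-4 and 0.313 and 0.419 CPM with LPS, a fall with LPS of -2.06 ± 0.33 (edgeR adjusted p = 0.0031; 4.18-fold) and a log2 change with IL-4 of -0.21 ± 0.27.

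The subunits of the Mcm ring fell by unequal amounts with LPS. Mcm2 was at 16.1 and 13 CPM in control, 18.8 and 20.2 CPM with IL-4 and 3.31 and 2.97 CPM with LPS. Its log2 change was -2.22 ± 0.15 with LPS (edgeR adjusted p = 0.00014; 4.65-fold lower) and 0.42 ± 0.14 with IL-4, which was not called. Mcm7 was at 21.6 and 19.2 CPM in control, 16.9 and 17.8 CPM with IL-4 and 4.94 and 4.37 CPM with LPS, 4.38-fold lower with LPS at -2.13 ± 0.13 (adjusted p = 8.9e-05). For both genes the LPS libraries lay far under the rest. Mcm6 was at 97.3 and 101 CPM in control, 80 and 77.8 CPM with IL-4 and 53.6 and 51.8 CPM with LPS, at -0.91 ± 0.09 with LPS. Mcm4 was at 26.5 and 32.4 CPM in control, 27.2 and 26.5 CPM with IL-4 and 17.9 and 17.6 CPM with LPS, at -0.73 ± 0.12. Mcm3 was at 38.2 and 33.5 CPM in control, 37.4 and 38.6 CPM with IL-4 and 24.6 and 23.9 CPM with LPS, at -0.56 ± 0.10. These 3 were called with LPS (edgeR adjusted p = 0.00053, 0.004 and 0.0056) and not with IL-4. Mcm5 was at 19.2 and 16 CPM in control, 15.9 and 15.9 CPM with IL-4 and 14 and 13.4 CPM with LPS, the smallest fall, -0.36 ± 0.12 (edgeR adjusted p = 0.048). It was not called with DESeq2 or RLE size factors, or when any library but replicate 2 of the controls was left out, and without control replicate 1 its log2 change was -0.13 (adjusted p = 0.38). With LPS the ring's subunits ran from Mcm6 at 11.3 RPKM to Mcm2 at 0.451 RPKM.

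Among the loaders, Cdc6 was at 1.25 and 1.81 CPM in control, 0.96 and 0.695 CPM with IL-4 and 0.522 and 0.489 CPM with LPS, a fall with LPS of -1.59 ± 0.32 (edgeR adjusted p = 0.0076) and a log2 change with IL-4 of -0.89 ± 0.28. Cdt1 was at 48.4 and 37.3 CPM in control, 28.4 and 33.6 CPM with IL-4 and 27.2 and 23.7 CPM with LPS, lower with LPS at -0.75 ± 0.17 (edgeR adjusted p = 0.011), a call that was lost without LPS replicate 2 (adjusted p = 0.076). Mcm10 was called lower with IL-4 and not with LPS, although both LPS libraries lay below both controls. It was at 2.69 and 2.56 CPM in control, 1.27 and 1.17 CPM with IL-4 and 1.95 and 1.89 CPM with LPS. IL-4 gave the lowest values, and its log2 change was -1.10 ± 0.17 with IL-4 (edgeR adjusted p = 0.0073; 2.15-fold lower) and -0.45 ± 0.17 with LPS, not called. Orc1 was at 0.504 and 1.45 CPM in control, 0.856 and 0.695 CPM with IL-4 and 0.278 and 0.454 CPM with LPS, with a wide gap between its control libraries and no call. Orc6 had log2 changes of -0.05 ± 0.12 and -0.33 ± 0.12.

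At the fork, Cdc45 was at 2.64 and 2.91 CPM in control, 1.71 and 1.5 CPM with IL-4 and 0.696 and 0.698 CPM with LPS. It was lower with both, at -0.79 ± 0.17 with IL-4 and -1.99 ± 0.20 with LPS (edgeR adjusted p = 0.027 and 0.0005), and its IL-4 call was lost with DESeq2 and whichever of the 6 libraries was left out. Gins1 was at 3.29 and 3.7 CPM in control, 2.49 and 2.24 CPM with IL-4 and 3.83 and 3.39 CPM with LPS, lowest with IL-4 (-0.56 ± 0.16) and with no call for either stimulus. Gins2 was not called either, at -0.18 ± 0.18 and -0.50 ± 0.18. Pole was at 4.15 and 4.53 CPM in control, 3.11 and 2.98 CPM with IL-4 and 0.8 and 0.873 CPM with LPS, 5.17-fold lower with LPS at -2.37 ± 0.17 (edgeR adjusted p = 0.00016). Prim1 was at 3.26 and 4.38 CPM in control, 3.17 and 3.54 CPM with IL-4 and 1.5 and 1.57 CPM with LPS, at -1.32 ± 0.21 with LPS (edgeR adjusted p = 0.003). Pole and Prim1 were not called with IL-4. Pola1 was at 2.69 and 10.9 CPM in control, 8.87 and 3.77 CPM with IL-4 and 1.46 and 2.17 CPM with LPS, and its control libraries differed so much that a log2 change of -1.91 ± 0.84 with LPS was not called.

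Pcna was called lower with IL-4 and not with LPS, although both LPS libraries lay below both controls. Scaled by library totals, Pcna was not called between IL-4 and LPS. It was at 251 and 258 CPM in control, 162 and 170 CPM with IL-4 and 234 and 230 CPM with LPS, a log2 change of -0.62 ± 0.09 with IL-4 (edgeR adjusted p = 0.0061; 1.54-fold lower) and -0.13 ± 0.09 with LPS. The loader subunit Rfc5 was at 12.3 and 11 CPM in control, 19.5 and 20.8 CPM with IL-4 and 7.83 and 8.52 CPM with LPS, the one member that IL-4 raised, at 0.79 ± 0.12 (edgeR adjusted p = 0.0066; 1.73-fold higher), while LPS lowered it, at -0.51 ± 0.12 (adjusted p = 0.013; 0.070 without control replicate 1 and 0.083 without LPS replicate 1). Rfc4 was at 4.2 and 4.1 CPM in control, 3.71 and 3.7 CPM with IL-4 and 2.4 and 2.79 CPM with LPS, lower with LPS at -0.68 ± 0.15 (edgeR adjusted p = 0.012; 0.074 without LPS replicate 1). Rfc3 was at 12.5 and 11.7 CPM in control, 11.2 and 12.1 CPM with IL-4 and 12.5 and 10.8 CPM with LPS, with log2 changes of -0.06 ± 0.12 and -0.06 ± 0.13.

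**Figure D5:**
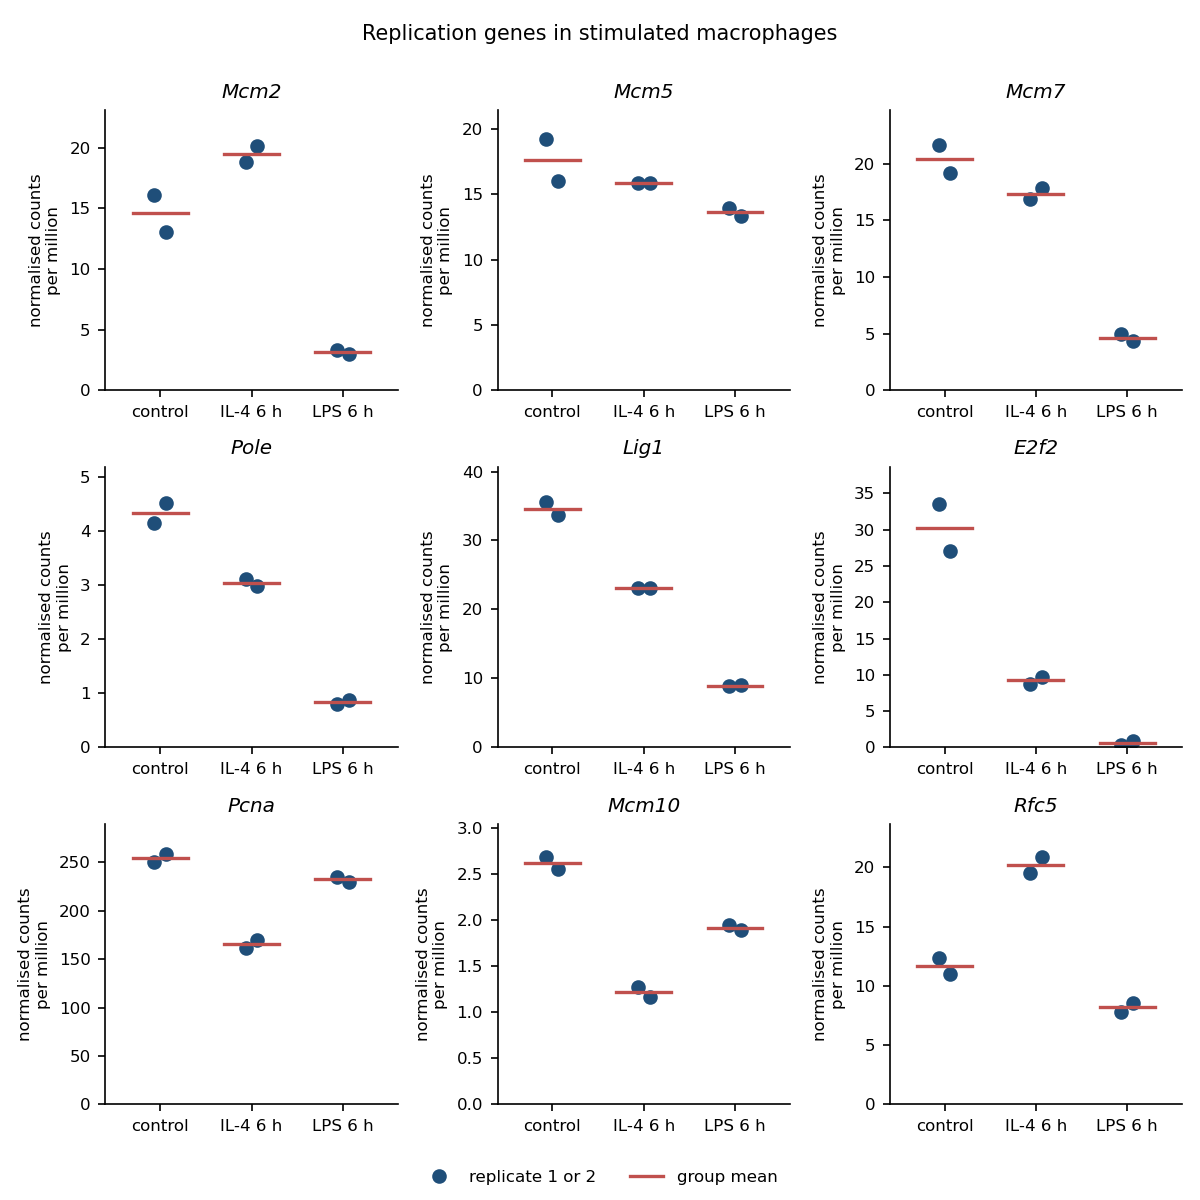
CPM of 9 genes in each of the 6 stimulation libraries, untreated, with IL-4 for 6 h and with LPS for 6 h; points are libraries and the red line is the group mean. Mcm2, Mcm7, Pole, Lig1 and E2f2 are lowest with LPS, Pcna and Mcm10 are lowest with IL-4, and Rfc5 is highest with IL-4.

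Lig1 was at 35.6 and 33.6 CPM in control, 23.1 and 23.1 CPM with IL-4 and 8.91 and 9.04 CPM with LPS. The groups were well apart, at -0.58 ± 0.09 with IL-4 and -1.95 ± 0.10 with LPS (edgeR adjusted p = 0.0082 and 4.9e-05), or 3.86-fold lower with LPS. Fen1 was at 0.792 and 0.516 CPM in control, 0.882 and 1.08 CPM with IL-4 and 0.626 and 0.489 CPM with LPS and was not called. Chaf1a was at 7.58 and 6.73 CPM in control, 5.92 and 6.77 CPM with IL-4 and 2.51 and 2.44 CPM with LPS, lower with LPS at -1.53 ± 0.15 (edgeR adjusted p = 0.00047). Chaf1b was at 6.48 and 6.12 CPM in control, 4.28 and 4.28 CPM with IL-4 and 2.96 and 2.79 CPM with LPS, lower with both, at -0.56 ± 0.13 and -1.13 ± 0.13 (edgeR adjusted p = 0.031 and 0.00097), the former lost with DESeq2 and kept in 1 of 6 fits that left out a library.

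Of the deoxynucleotide genes, Rrm2 was at 3.33 and 4.46 CPM in control, 2.91 and 2.89 CPM with IL-4 and 1.39 and 1.68 CPM with LPS and Rrm1 at 45.7 and 46.2 CPM in control, 36.5 and 39.1 CPM with IL-4 and 29.2 and 29.7 CPM with LPS. Both fell with LPS, at -1.34 ± 0.21 and -0.64 ± 0.09 (edgeR adjusted p = 0.0031 and 0.002). Tk1 was at 10.3 and 11.2 CPM in control, 9.05 and 9.44 CPM with IL-4 and 7.97 and 11 CPM with LPS, with LPS values that spanned the control values. Tyms was at 2.95 and 3.56 CPM in control, 2.59 and 1.91 CPM with IL-4 and 2.26 and 2.27 CPM with LPS, at -0.52 ± 0.21 with LPS (edgeR adjusted p = 0.087). None of the 4 was called with IL-4.

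Set against each other, IL-4 left 17 of the 34 genes higher than LPS and 3 lower, where 29.7% of all genes were higher and 23.4% lower. The widest gaps were in E2f2 (3.92 ± 0.32; 15.1-fold), Mcm2 (2.63 ± 0.16; 6.2-fold) and Mcm7 (1.90 ± 0.13; 3.73-fold). The 3 lower with IL-4 were Mcm10 (-0.65), Gins1 (-0.61) and Pcna (-0.49). Scaled by library totals these 3 were not called, and 26 members were higher and none lower, beside 52.5% and 13.5% of all genes. Means ran from control through IL-4 down to LPS for 22 genes, and from control through LPS down to IL-4 for 7. These orders were not counted over all genes.

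Related lists moved in parts. Of all genes, 29.3% were lower with LPS and 22.8% higher. With LPS, of 39 other replication genes 21 fell and 4 rose, the falls led by Dna2 (-3.68), a flap nuclease, Dnmt1 (-1.32), the maintenance methyltransferase, Gmnn (-2.04), the inhibitor of Cdt1, and Pole2 (-1.89). Of 19 other nucleotide genes 11 fell, among them Pfas (-1.22), and 2 rose, Dck (2.42), a salvage kinase, and Samhd1 (2.07). Of 29 regulators of S phase entry 12 fell, with Ccnd1 (-1.63) and the E2F partner Tfdp2 (-3.76), and 10 rose, with Ccnd2 (3.08) and the kinase inhibitor Cdkn1a (2.11). Of 16 mitotic genes 9 fell, led by Cdk1 (-1.84) and Aurkb (-2.15), and 1 rose. With IL-4, 4 of 39 other replication genes fell, a share near that of all genes (10.5%), and none rose. Of 19 other nucleotide genes 7 rose and 1 fell, where 9.66% of all genes rose. Dck (1.33) and Cdkn1a (1.38) were among the genes that rose with IL-4. Stromal markers summed to 69.0 to 101 CPM in the stimulation libraries, and of the 6 tested none was called with LPS against control. Col1a1 (-0.55) was lower with IL-4 than in control, and Col1a1 (-0.43) and Dcn (-0.43) were lower with IL-4 than with LPS. Their part in the IL-4 results was not tested.

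The loss of glutamine and LPS have no library in common, so their calls may be set side by side. Cdc6, Dtl, Mcm4, Rrm1 and Rrm2 were lower in both, which is 5 of the 8 lower without glutamine (62.5%) and 5 of the 21 lower with LPS (23.8%). As 61.8% of all 34 were lower with LPS, the first share is near what the set as a whole shows. Of the 280 genes lower without glutamine among all 12128 tested in both tables, 133 (47.5%) were lower with LPS, where 29.6% of all were. E2f7, Mcm10 and Tk1 were lower without glutamine and not called with LPS. Cdt1 was higher without glutamine and lower with LPS. The letters of the E2F motif divided the members as follows. Of 13 members with them 3 were lower without glutamine and 9 with LPS, and of 17 without them 4 and 10. Their median log2 changes with LPS were -1.41 and -0.64, and without glutamine -0.45 and -0.37. Across all 6 comparisons 8 members were called in none without the block: Orc1, Orc6, Gins2, Pola1, Fen1, Tyms, E2f1 and Rfc3. Of these Gins2 and Tyms were called with it.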

How the data were processed

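The authors deposited raw counts per gene, in one table of 12 tolerant libraries and another of 6 stimulation libraries. Per the labels, total RNA went into stranded TruSeq libraries. Per the submitters' processing notes, the tools were STAR and HTSeq and the build was mm10. Tool versions were not given in the sources used here, and nor was the strand setting. Reads where genes overlap may therefore have been counted for the other gene or for neither. In GENCODE vM21, 14 members share exon bases with a gene on the opposite strand (Mcm7, Gins2, Cdc45, Tk1, E2f7, E2f8, Pole, Rfc4, Rfc5, Chaf1a, Fen1, Lig1, Orc1 and Orc6). Of these Mcm7 also holds 2 microRNA genes on its own strand. The values of these members are less certain for it.

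For each table, one model over its 3 groups was fitted with edgeR 4.0.16 under R 4.3.3, with limma 3.58.1 installed. Genes passed filterByExpr, scaling was by TMM, and the test was the robust quasi-likelihood F test with Benjamini-Hochberg adjustment over all genes tested and calls at an adjusted p under 0.05. The coefficient of biological variation came to 0.271 for the tolerant libraries, 0.124 once the replicate block was added, and 0.174 for the stimulation libraries. Residual degrees of freedom were 9 and 3. The fit was tested on simulated data with known changes. The simulated libraries had no split between pairs of replicates and a smaller spread than the tolerant ones. The simulation therefore does not cover the tolerant fit under that split. RPKM is TMM-scaled CPM per kilobase of GENCODE exon. Figures were made in matplotlib 3.10.9.

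Whether replicate numbers pair the libraries was read from the correlations of their deviations from group means. Among tolerant libraries the 12 same-number values were 0.501 to 0.823, so a replicate block is given where it changes a call. Libraries with another number from the same pair of numbers (1 and 2, or 3 and 4) correlated as highly, at 0.465 to 0.836, and across the pairs the values ran from -0.838 to -0.567. The block therefore also takes up the difference between these pairs. Deviations from a group mean cancel out, so values across the pairs turn negative where libraries within a pair agree. In the stimulation set the 6 same-number values ran from -0.662 to 0.501, and the number was not taken to pair libraries. With 2 libraries a group the deviations mirror each other, so these values repeat and are not independent.

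The members, lists and tests were chosen with earlier results of these data known. All members are named. Values per library are given for members in the set where they were called, and for at least one member of each role, and from each related list up to 4 called genes by smallest p. The alternatives were DESeq2 1.42.0, RLE in place of TMM, dropping the filter or setting it at 1 CPM, the replicate block, fits of 2 groups alone, the pairs of replicates as a factor or alone, and leaving out each library. Library totals without TMM and a crossed block were added after seeing the data.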

Additional observations from a re-analysis of the deposited data

Results flagged for a closer look

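Of 102 groups of 4 tolerant libraries, each 1 member in 1 group, 4 had a library far from the other 3 by Dixon's test at 95%, where chance gives about 1 in 20. With AKG, Mcm3 in replicate 3 was at 27.2 CPM and the next library at 28.2 CPM, in a group of otherwise nearly equal values. Without glutamine, Rrm2 in replicate 2 was at 0.779 CPM (the next at 1.34), Fen1 in replicate 2 at 0.479 CPM (the next at 0.615) and E2f1 in replicate 4 at 26.5 CPM (the next at 35.0).

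In 3 cases the change differed between replicates 1 and 2 and replicates 3 and 4 by edgeR's test of the interaction. Without glutamine against with it, the log2 change of Rrm2 was lower in replicates 3 and 4 by a difference of -1.85 (edgeR adjusted p = 0.039). With AKG against glutamine the difference was -0.52 for Rrm1 (edgeR adjusted p = 0.029) and -1.81 for Dtl (edgeR adjusted p = 0.045). The labels do not say what the replicate numbers stand for.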

How the results depend on the processing

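Members called in a comparison kept their direction under every alternative run: of their recalculated values 761 stayed past the threshold, 122 did not and 0 were reversed. E2f7, Fen1 and Orc1 dropped out under the filter of 1 CPM, and E2f7 in a fit of the 2 groups alone. For no glutamine against glutamine, 8 members were lower and 1 higher. The count lower became 16 with the replicate block (13.0% of all genes), 17 with the replicate pairs as a factor (14.3%), 15 in replicates 3 and 4 alone (8.79%) and 3 with the 2 groups alone (0.833%). The count higher became 0 with no filter, library totals or the 2 groups alone, and 2 with the replicate pairs as a factor or in replicates 1 and 2 alone. There the median was -0.22. Leaving out 1 library gave 2 to 10 lower (2 without replicate 2 of no glutamine, 5 and 4 without replicates 3 and 4 of glutamine) and 0 to 1 higher. For AKG against no glutamine, where none was called, DESeq2 gave 1 higher and 1 lower (2.61% and 2.96% of all genes), the block 1 and 2 (8.32% and 7.03%), the replicate pairs as a factor 2 and 2 (9.79% and 8.72%), and replicates 1 and 2 alone 3 and 3 (12.7% and 10.9%). Replicates 3 and 4 alone gave 1 lower (2.61%). For AKG against glutamine the count lower rose from 0 to 5 with DESeq2 (1.26% of all genes), 8 with the block (5.38%), 11 with the replicate pairs as a factor (6.60%), 3 in replicates 1 and 2 alone (6.53%) and 11 in replicates 3 and 4 alone (5.08%).

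For LPS the median was -0.64 with RLE size factors or DESeq2, -1.19 with library totals, and -0.80 to -0.68 with 1 library left out. For IL-4 against LPS the median of 0.59 became 0.51 with RLE or DESeq2 and 1.07 with library totals, which gave 26 higher and 0 lower, and leaving out 1 library gave 0 to 3 lower. For IL-4 against control the 2 groups alone gave 4 lower (6.11% of all genes) and a median of -0.26, as did the replicate block for the median, and leaving out 1 library gave 0 to 8 lower and 0 to 2 higher, with 0 without either IL-4 library and 2 higher without control replicate 1. A block with the IL-4 numbers crossed gave 15 lower and 2 higher, beside 16.9% and 14.8% of all genes. The causes were not tested. In the stimulation set a left-out library leaves 1 in its group, assumed to vary like the others. Low counts limit E2f7, Dtl, Fen1 and Orc1 most.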
